A study of Bos taurus with 9 samples.

Results

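The probe sets described here are those that lay below control after 5 h of salt and above control after 24 h of salt in cultured bovine nucleus pulposus cells. They numbered 219 of the 24016 probe sets on the array outside the manufacturer's controls. Arrays were paired by the replicate number of the labels, and intensities were taken as log2(value + 16). A probe set belonged to the group where its mean over the 9 arrays was at least 6, all 3 differences salt 5 h minus control were below 0 with a mean of at most -0.4, and all 3 differences salt 24 h minus control were above 0 with a mean of at least 0.4. Members were thus chosen by their measured differences from control at both times, so these differences are a description and carry no test.

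The nucleus pulposus is the gel-like core of the intervertebral disc, and its cells live at an osmolality that shifts with load. The cells were taken, per the labels, from the caudal discs of young calves and cultured in DMEM with fetal bovine serum. The salt 5 h cultures and the salt 24 h cultures were brought with salt to 500 mOsm/kg for the time in their name, and the control cultures received no salt. Each group had 3 arrays, which the labels call biological replicates without saying whether they came from different animals. No time is given for the control, and the same 3 control arrays serve both times, so time in culture and salt cannot be told apart. The measurements are of bulk RNA, in which fewer cells of a type and less RNA per cell cannot be told apart.

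Hyperosmotic salt draws water out of cells and concentrates the cytoplasm. Cells are known to slow transcription and translation at first and then to collect organic osmolytes, after which much of gene expression resumes. Messenger RNAs with a short life follow such a pause closely, and many encode regulators of transcription and inhibitors of signalling. Whether this applies to the members was not tested, and the share of such genes among all measured genes was not counted.

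The median intensity of an array lay between 67.1 and 84.5. Relative to control, the array medians shifted on the log2 scale by -0.15, -0.063 and -0.038 in the 3 pairs at 5 h and by 0.040, 0.077 and 0.090 at 24 h, the same directions that the rule asks for. Those medians cover all 24016 probe sets, dim ones included. Over the probe sets with a mean of at least 6, the median differences were -0.047, 0.010 and -0.044 at 5 h. At 24 h they were 0.017, 0.0049 and -0.0015. Which scaling is right was not tested. With each array centred on its median, 123 of the 219 members met the rule. A second feature concerned the control array of replicate 1. On the second principal component of the 9 arrays, which held 31.1% of the variance, it scored -0.011, against -22.3 and -29.6 for the other control arrays. The salt 24 h arrays scored 36.3 to 52.0 there and the salt 5 h arrays -30.7 to -23.1, so this control array lay nearer to the salt 24 h arrays than the other control arrays did. The control arrays of replicates 1, 2 and 3 were the highest of the 3 for 96 (43.8%), 33 (15.1%) and 90 (41.1%) members, against 28.3%, 33.4% and 38.3% of the 13914 probe sets with a mean of at least 6. Over the members, the control array of replicate 2 lay a median of 0.26 below the mean of the other control arrays on the log2 scale, and that of replicate 1 a median of 0.14 above. Without replicate 1, 151 probe sets met the rule, of which 117 were among the 219.

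Among the markers of nucleus pulposus cells, CDH2, ACAN and COL2A1 were measured with a mean of at least 6, while the keratins KRT8, KRT18 and KRT19 were between 2.1 and 31.8 on every array, so the labelled cell type was only partly borne out by its markers. All 6 measured markers of that list summed to 3135 to 3352 on the salt 5 h arrays, 3304 to 5371 on the salt 24 h arrays and 2624 to 3941 on the control arrays. The 7 measured leukocyte markers summed to 205.1 to 239.6 at 5 h, 399 to 451 at 24 h and 209.8 to 222.9 in control. CD14, a receptor of innate immunity that other cells also make, carried the 24 h level, while PTPRC, which defines leukocytes, lay between 0 and 36.8. The 6 endothelial markers summed to 174.9 to 209.7, 173.3 to 209.9 and 166.2 to 223.0 in the same order. The 5 muscle markers summed to 946 to 3151, 2075 to 3414 and 737 to 837, with the creatine kinase CKM carrying the difference and the myosin MYH1 at 10.2 or lower on every array. The 6 fibroblast markers summed to 21088 to 24757, 23602 to 28998 and 22892 to 31773, and the 4 erythroid markers summed to at most 136.2 on any array. The part of other cell types in the members' values was not tested.

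Each part of the rule was also counted alone. The 5 h part was met by 1117 of the 13914 probe sets (8.03%) and the 24 h part by 2509 (18.0%). The members were 19.6% of the first of these lists and 8.73% of the second. Both parts subtract the same 3 control arrays and chose the members, so nothing is read from these shares.

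Members were of low to middle brightness. Their median intensity, as a mean over the arrays of a group, was 80.9 in salt 5 h cultures, 260.3 in salt 24 h cultures and 144.1 in control cultures, where all probe sets with a mean of at least 6 had medians of 262.7, 273.7 and 272.1. The median size of the 5 h difference was 0.57 on the log2 scale (0.40 to 2.18) and that of the 24 h difference 0.69 (0.40 to 1.85). For 131 members the excess at 24 h was larger than the deficit at 5 h, and for 88 it was smaller. A deficit of at least 1 was seen in 22 members and an excess of at least 1 in 43. Only the 2 probe sets of CEBPD had both.

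**Figure D1:**
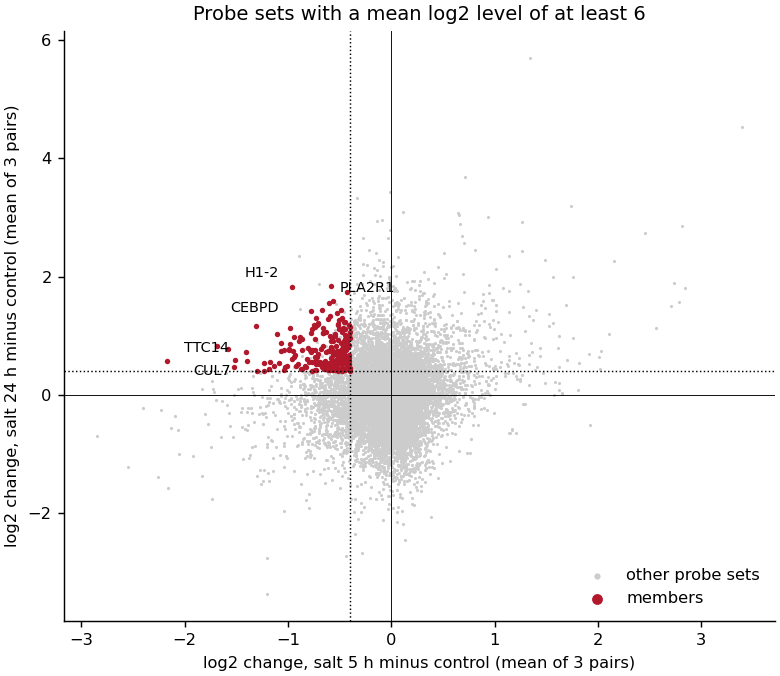
Mean log2 difference from control over 3 pairs at 5 h (horizontal) and at 24 h (vertical) for the 13914 probe sets with a mean log2 level of at least 6. Dotted lines mark the -0.4 and 0.4 of the rule, and the 219 members (red) fill the upper left corner it defines. Grey points in that corner failed the sign in at least 1 pair.

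The pairs did not contribute equally. At 5 h the members' median difference was -0.80 in pair 1, -0.41 in pair 2 and -0.50 in pair 3, where all probe sets with a mean of at least 6 had medians of -0.047, 0.010 and -0.044. At 24 h the members' medians were 0.61, 0.73 and 0.72, against 0.017, 0.0049 and -0.0015 for all those probe sets. Pair 1 held the largest deficit for 133 members, and for 79 it was larger than those of the other pairs together. Pair 2 did so for 25 members and pair 3 for 3. At 24 h the largest excess was spread more evenly, with 57, 91 and 71 members in pairs 1, 2 and 3.

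**Figure D2:**
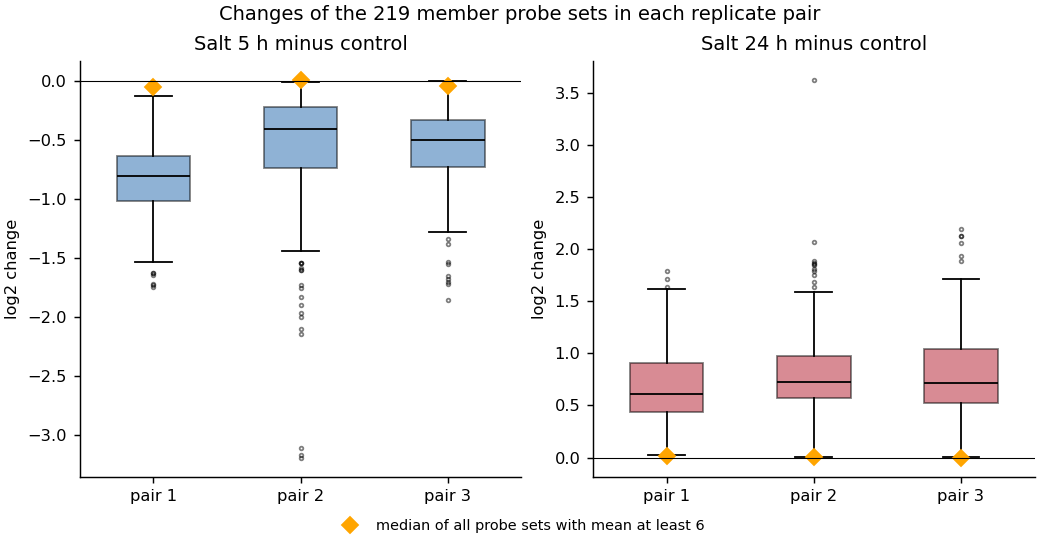
Log2 differences from control of the 219 members in each replicate pair, at 5 h (left) and at 24 h (right). Boxes span the quartiles with the median as a line, points beyond the whiskers are drawn singly, and diamonds give the median of all probe sets with a mean of at least 6. The 5 h box of pair 1 lies lowest, with a median of -0.80.

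All 3 salt 5 h arrays lay below all 3 control arrays for 116 members, where 6.55% of all probe sets with a mean of at least 6 did so. All 3 salt 24 h arrays lay above all control arrays for 135 members, against 14.4% of those probe sets, and 90 members had both, against 1.32%. In the limma fit over 18012 probe sets, with calls at a Benjamini-Hochberg adjusted p under 0.05, 6 members were called lower at 5 h (0.25% of all tested) and 46 were called higher at 24 h (4.28% of all tested). Between the salt groups, 182 members were called higher at 24 h than at 5 h (8.01% of all tested). With the replicate number as a block, these counts were 89 (3.41% of all tested), 194 (18.3%) and 219 (24.2%). The rule used the same contrasts, so nothing is read from these counts. Of the 6 called at 5 h, NOTCH4 and PLPP6 carried a symbol. NOTCH4 was the only member called lower at 5 h and higher at 24 h without the block, where 0.0111% of all tested probe sets had both calls. With the block 83 members had both, against 0.6% of all tested.

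Of the 219 members, 119 carried 1 gene symbol and 100 (45.7%) were not listed with a gene in the annotation, against 35.4% unlisted among probe sets with a mean of at least 6. The other probe sets that met the 5 h part were unlisted in 43.1% of cases and the other ones that met the 24 h part in 35.8%. The 119 named probe sets stood for 105 symbols, of which 2 are placeholders, leaving 103 genes. These were sorted into classes by their known roles after the members were known. Genes were ranked by the smaller of their deficit at 5 h and their excess at 24 h, and the 24 leading ones are all described. In what follows, differences are means over the 3 pairs on the log2(value + 16) scale with the SD over the pairs, and intensities are linear.

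**Figure D3:**
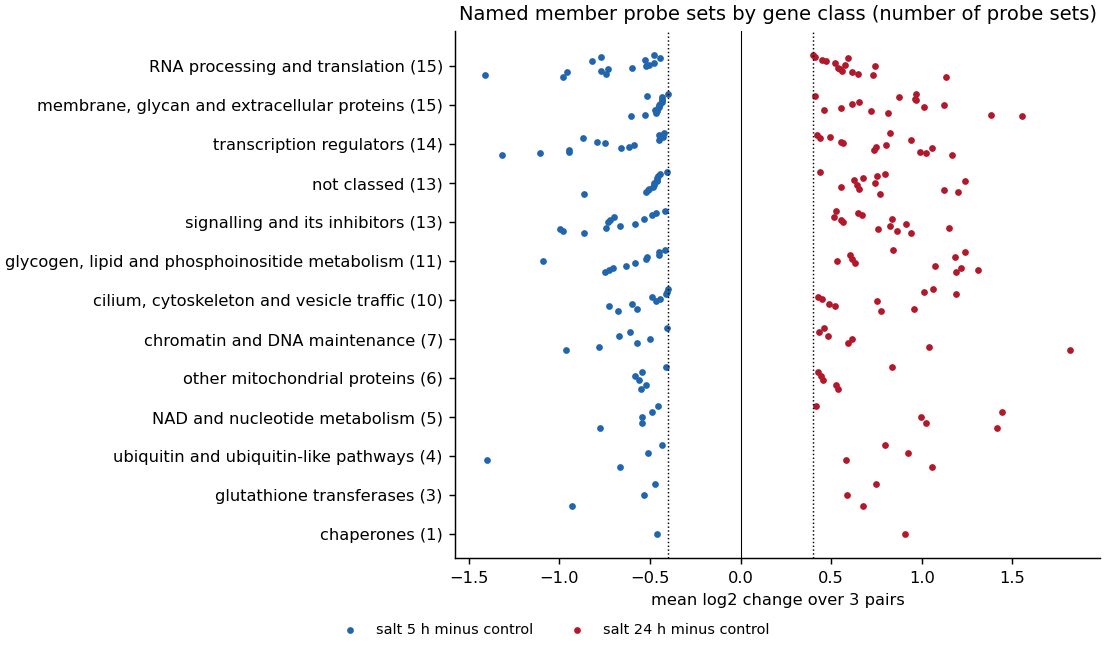
Mean log2 difference from control at 5 h (blue) and at 24 h (red) for the named member probe sets, in classes assigned by hand; the number of probe sets follows each class name. Dotted lines mark the -0.4 and 0.4 of the rule. The lowest 5 h values are -1.41 among RNA processing genes, -1.40 among ubiquitin genes and -1.31 among transcription regulators, while membrane, glycan and extracellular proteins stay between -0.60 and -0.40.

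Transcription regulators made up 12 genes with 14 probe sets, and their median difference was -0.70 at 5 h and 0.78 at 24 h. CEBPD, a CCAAT/enhancer-binding protein induced by cytokines and glucocorticoids, led the list. Its brighter probe set read 527, 859 and 452 on the salt 5 h arrays, 3338, 1808 and 3037 on the salt 24 h arrays and 1175, 1247 and 1461 on the control arrays. The dimmer one read 26.3, 61.7 and 27.2 on the salt 5 h arrays, 397, 156 and 333 on the salt 24 h arrays and 117, 89.2 and 140.5 on the control arrays. Both probe sets kept the groups apart at both times, with the smallest deficit and excess in pair 2. The differences were -1.11 ± 0.56 at 5 h and 1.02 ± 0.48 at 24 h for the brighter and -1.31 ± 0.77 at 5 h and 1.17 ± 0.47 at 24 h for the dimmer.

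ZNF572, a zinc finger protein, had 35.1, 47.8 and 69.3 on the salt 5 h arrays, 212, 175 and 342 on the salt 24 h arrays and 105, 71.1 and 173 on the control arrays. The 3 groups did not overlap, but the gaps were narrow. At 5 h the highest salt array read 69.3 and the lowest control array 71.1. At 24 h the lowest salt array read 175 and the highest control array 173. The differences were -0.95 ± 0.43 at 5 h and 0.99 ± 0.12 at 24 h. Among the other zinc finger genes, ZNF3 differed by -0.95 ± 0.35 at 5 h and 0.74 ± 0.12 at 24 h and ZNF613 by -0.62 ± 0.09 at 5 h and 0.75 ± 0.18 at 24 h. Both had groups that did not overlap at either time. SIX5, a homeobox factor, differed by -0.66 ± 0.23 at 5 h and 1.06 ± 0.22 at 24 h, again without overlap.

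PER2 is a repressor in the circadian clock and was seen by 2 member probe sets. The brighter read 92.0, 144 and 153 on the salt 5 h arrays, 275, 272 and 448 on the salt 24 h arrays and 141, 157 and 243 on the control arrays, and the salt 5 h and control arrays overlapped while the salt 24 h arrays were all higher. Its differences were -0.42 ± 0.27 at 5 h and 0.82 ± 0.08 at 24 h. The dimmer probe set differed by -0.59 ± 0.34 at 5 h and 0.80 ± 0.27 at 24 h. NFKBIZ, an inducible regulator of NF-kB target genes, differed by -0.45 ± 0.18 at 5 h and 0.94 ± 0.32 at 24 h with overlapping groups at 5 h. Another NFKBIZ probe set, with a mean log2 level of 6.60, differed by 0.074 at 5 h and 0.29 at 24 h. CREBZF, a leucine zipper cofactor, differed by -0.79 ± 0.18 at 5 h and 0.55 ± 0.06 at 24 h. Of the 14 probe sets of the class, 11 met the rule without replicate 1 and 9 with median-centred arrays.

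Genes of signalling and its inhibitors numbered 11 with 13 probe sets. TRIB2 is a pseudokinase that steers C/EBP proteins to degradation. Its brighter probe set read 190.2, 130.5 and 379.7 on the salt 5 h arrays, 644, 609.5 and 1220.2 on the salt 24 h arrays and 328, 343 and 568 on the control arrays. Replicate 3 was the highest in every group, so the salt 5 h array of replicate 3 exceeded 2 control arrays, while within pairs the order was the same throughout. The member probe sets differed by -0.86 ± 0.38 at 5 h and 0.94 ± 0.14 at 24 h and by -0.98 ± 0.35 at 5 h and 0.86 ± 0.06 at 24 h. Another TRIB2 probe set, with a mean log2 level of 6.35, was not a member. It differed by -0.094 at 5 h and 1.05 at 24 h. NOTCH4, a Notch receptor best known from blood vessels, read 22.4, 32.1 and 22.4 on the salt 5 h arrays, 122, 133 and 116 on the salt 24 h arrays and 74.6, 61.2 and 64 on the control arrays. Its 3 groups did not overlap, and it differed by -0.99 ± 0.28 at 5 h and 0.76 ± 0.18 at 24 h.

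PIK3IP1, an inhibitor of phosphoinositide 3-kinase, read 29.3, 50.6 and 23.5 on the salt 5 h arrays, 213, 123 and 176 on the salt 24 h arrays and 73.3, 57.4 and 69.0 on the control arrays. The groups did not overlap, although the 5 h deficit in pair 2 was small, and the differences were -0.74 ± 0.52 at 5 h and 1.15 ± 0.22 at 24 h. DUSP1, a phosphatase that switches off MAP kinases, read 903, 719 and 1017 on the salt 5 h arrays, 2168, 3195 and 2181 on the salt 24 h arrays and 2082, 1126 and 1139 on the control arrays. Here the control array of replicate 1 stood well above the other control arrays. The differences were -0.66 ± 0.51 at 5 h and 0.83 ± 0.72 at 24 h, and DUSP1 did not meet the rule without replicate 1. RALGDS, an activator of Ral GTPases, differed by -0.58 ± 0.24 at 5 h and 0.91 ± 0.33 at 24 h. The docking protein DOK1, which restrains receptor tyrosine kinases, differed by -0.70 ± 0.26 at 5 h and 0.52 ± 0.09 at 24 h, and CFLAR, an inhibitor of caspase-8, by -0.72 ± 0.37 at 5 h and 0.55 ± 0.12 at 24 h. RAMP1, a receptor partner for calcitonin gene-related peptide, had 2 member probe sets, with -0.53 ± 0.58 at 5 h and 0.84 ± 0.49 at 24 h for the brighter and -0.73 ± 0.51 at 5 h and 0.56 ± 0.49 at 24 h for the dimmer. Of these 2 only the dimmer met the rule without replicate 1. In the class, 8 of 13 probe sets did so.

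Genes of RNA processing and translation numbered 12 with 15 probe sets, with medians of -0.73 at 5 h and 0.56 at 24 h. RPUSD3, a mitochondrial pseudouridine synthase, had 3 member probe sets. The one that ranked highest read 101, 33.8 and 44.4 on the salt 5 h arrays, 423, 405 and 139 on the salt 24 h arrays and 128, 183 and 78.5 on the control arrays. Its arrays overlapped between groups, with the salt 24 h array of replicate 3 below a control array. The 3 probe sets differed by -0.96 ± 0.48 at 5 h and 0.61 ± 0.20 at 24 h, by -0.98 ± 0.90 at 5 h and 1.14 ± 0.45 at 24 h and by -0.73 ± 0.53 at 5 h and 0.55 ± 0.21 at 24 h. TTC14, an RNA-binding protein, read 119, 10.4 and 141 on the salt 5 h arrays, 323, 321 and 402 on the salt 24 h arrays and 152, 213 and 257 on the control arrays. The salt 5 h array of replicate 2 was near the floor, and the differences were -1.41 ± 1.49 at 5 h and 0.73 ± 0.25 at 24 h. The splicing-related PNISR differed by -0.74 ± 0.17 at 5 h and 0.65 ± 0.07 at 24 h. A separate gene record carries SFRS18, an older name of the same protein in human, and its 2 member probe sets differed by -0.48 ± 0.21 at 5 h and 0.52 ± 0.36 at 24 h and by -0.53 ± 0.19 at 5 h and 0.45 ± 0.37 at 24 h. TNRC6B, a partner of Argonaute in microRNA silencing, differed by -0.52 ± 0.27 at 5 h and 0.74 ± 0.17 at 24 h. RBM5, a splicing regulator, differed by -0.51 ± 0.20 at 5 h and 0.57 ± 0.05 at 24 h. In this class 15 of 15 probe sets met the rule without replicate 2 and 9 without replicate 1.

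Chromatin and DNA maintenance held 7 genes. H1-2, a linker histone, read 97.8, 102 and 107 on the salt 5 h arrays, 489, 2225 and 458 on the salt 24 h arrays and 358, 166 and 163 on the control arrays. The groups did not overlap. The salt 24 h array of replicate 2 stood far above the others, and the control array of replicate 1 above the other control arrays. The differences were -0.96 ± 0.66 at 5 h and 1.82 ± 1.63 at 24 h, so the SD at 24 h was close to the difference itself. TSPYL4, a relative of nucleosome assembly proteins, read 176, 247 and 246 on the salt 5 h arrays, 671, 877 and 943 on the salt 24 h arrays and 412, 301 and 480.0 on the control arrays. Its groups did not overlap at either time, and it differed by -0.78 ± 0.46 at 5 h and 1.04 ± 0.41 at 24 h. TEP1, a telomerase-associated protein, differed by -0.50 ± 0.13 at 5 h and 0.62 ± 0.11 at 24 h. XIST, the long noncoding RNA that silences an X chromosome, differed by -0.67 ± 0.47 at 5 h and 0.48 ± 0.29 at 24 h and overlapped between groups. Outside the members, XIST probe sets with a mean of at least 6 differed by -0.72 and -0.030 at 5 h and by 0.35 and 0.54 at 24 h.

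Glycogen, lipid and phosphoinositide metabolism held 8 genes with 11 probe sets. PPP1R3C directs protein phosphatase 1 to glycogen and promotes glycogen synthesis. Its brightest of 3 probe sets read 220.2, 139 and 245 on the salt 5 h arrays, 886, 697 and 1006 on the salt 24 h arrays and 301, 322 and 385 on the control arrays. All 3 probe sets kept the 3 groups apart. They differed by -0.73 ± 0.36 at 5 h and 1.31 ± 0.22 at 24 h, by -0.75 ± 0.08 at 5 h and 1.19 ± 0.22 at 24 h and by -0.71 ± 0.21 at 5 h and 1.22 ± 0.28 at 24 h. LCAT, which esterifies cholesterol in plasma, had 2 probe sets at -0.51 ± 0.18 at 5 h and 1.19 ± 0.19 at 24 h and at -0.45 ± 0.33 at 5 h and 1.24 ± 0.20 at 24 h. MTMR11, a relative of the myotubularin phosphatases, differed by -0.63 ± 0.25 at 5 h and 1.07 ± 0.18 at 24 h. The phosphatase PLPP6, which acts on isoprenoid lipids, differed by -1.09 ± 0.28 at 5 h and 0.53 ± 0.12 at 24 h.

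HMGCS1, which makes the precursor of mevalonate in sterol synthesis, was among the brightest members and read 2704, 1777 and 2843 on the salt 5 h arrays, 6256, 5951 and 5083 on the salt 24 h arrays and 3384, 2619 and 3690.5 on the control arrays. The salt 24 h arrays were all higher than the others, while the salt 5 h and control arrays overlapped. It differed by -0.42 ± 0.12 at 5 h and 0.84 ± 0.36 at 24 h. Another HMGCS1 probe set, with a mean log2 level of 6.61, differed by -0.34 at 5 h and -0.067 at 24 h. The median excess of the class at 24 h was 1.07, and its 11 probe sets had all salt 24 h arrays above all control arrays. Without replicate 1, 9 of 11 met the rule.

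Genes of NAD and nucleotide metabolism numbered 5. QPRT, which makes nicotinic acid mononucleotide from quinolinate in the kynurenine route to NAD, read 75.6, 54.3 and 109.9 on the salt 5 h arrays, 489.9, 284 and 494 on the salt 24 h arrays and 243, 85.0 and 139.6 on the control arrays. At 5 h the highest salt array exceeded the lowest control array, and at 24 h the groups did not overlap. It differed by -0.78 ± 0.64 at 5 h and 1.42 ± 0.40 at 24 h. NAPRT, which starts NAD synthesis from nicotinic acid, differed by -0.54 ± 0.12 at 5 h and 1.02 ± 0.36 at 24 h. NUDT12, a hydrolase of NADH, differed by -0.54 ± 0.39 at 5 h and 1.0 ± 0.43 at 24 h. The mitochondrial deacetylase SIRT3, which consumes NAD, differed by -0.49 ± 0.62 at 5 h and 1.44 ± 0.47 at 24 h. Its 5 h differences of -1.20, -0.08 and -0.18 in the 3 pairs show a deficit mostly in pair 1. ADPRM, a hydrolase of ADP-ribose, differed by -0.46 ± 0.05 at 5 h and 0.41 ± 0.20 at 24 h. QPRT, NAPRT and ADPRM met the rule without replicate 1.

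Membrane, glycan and extracellular proteins numbered 13 genes with 15 probe sets, and of the classes with more than 1 probe set they met the rule least often without replicate 1. Only 1 of the 15, that of PDPN, met the rule without it, and 0 of 15 did so with median-centred arrays. Their median 5 h difference was -0.45, near the -0.4 of the rule. CLU, the secreted chaperone clusterin, read 2592, 2695 and 2073 on the salt 5 h arrays, 6829, 7411 and 6072 on the salt 24 h arrays and 5729, 2847 and 2283 on the control arrays. The control array of replicate 1 stood near the salt 24 h arrays, and the other control arrays stood beside the salt 5 h arrays. CLU differed by -0.45 ± 0.60 at 5 h and 1.01 ± 0.66 at 24 h. MMP2, a gelatinase of the matrix, read 2134, 1735 and 1075 on the salt 5 h arrays, 4520.2, 4081 and 2124 on the salt 24 h arrays and 4062, 1926 and 1268 on the control arrays and showed the same high control array.

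PLA2R1, a receptor for secreted phospholipase A2, had 2 member probe sets. The brighter read 91.5, 50.6 and 97.2 on the salt 5 h arrays, 531, 239 and 499.9 on the salt 24 h arrays and 339.5, 54.7 and 97.3 on the control arrays. Its 5 h differences in the 3 pairs were -1.73, -0.09 and -0.0013, so that replicates 2 and 3 hardly differed from control at 5 h. The mean differences were -0.60 ± 0.97 at 5 h and 1.55 ± 0.82 at 24 h for the brighter and -0.53 ± 0.79 at 5 h and 1.38 ± 0.77 at 24 h for the dimmer. Podoplanin, PDPN, a membrane mucin, differed by -0.43 ± 0.16 at 5 h and 0.96 ± 0.78 at 24 h, with the salt 24 h array of replicate 2 at 763 against 280.1 and 284.3 on the others.

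AQP1, a water channel, had 2 member probe sets. The brighter read 262, 102 and 400.4 on the salt 5 h arrays, 735, 329 and 949.6 on the salt 24 h arrays and 419.8, 143 and 469 on the control arrays. Replicate 2 was the lowest in every group, and the groups overlapped at both times. The probe sets differed by -0.43 ± 0.22 at 5 h and 0.97 ± 0.17 at 24 h and by -0.43 ± 0.37 at 5 h and 0.87 ± 0.11 at 24 h. SLC6A9, a glycine transporter, read 83.6, 44.9 and 0.4 on the salt 5 h arrays, 187, 173 and 7.5 on the salt 24 h arrays and 127, 62.7 and 6.2 on the control arrays, and replicate 3 was near the floor in every group. It differed by -0.44 ± 0.08 at 5 h and 0.62 ± 0.60 at 24 h.

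Genes of the cilium, the cytoskeleton and vesicle traffic numbered 10. RUFY3, which links endosomes and lysosomes to motor proteins, read 75.8, 23.2 and 117 on the salt 5 h arrays, 186, 188 and 222 on the salt 24 h arrays and 95.9, 98.5 and 136 on the control arrays. The salt 5 h array of replicate 2 was far below the others, the differences were -0.68 ± 0.75 at 5 h and 0.77 ± 0.11 at 24 h, and RUFY3 did not meet the rule without replicate 2. Another RUFY3 probe set, with a mean log2 level of 6.20, differed by -0.049 at 5 h and 0.25 at 24 h. IFT122, a component of transport within cilia, differed by -0.44 ± 0.26 at 5 h and 0.45 ± 0.19 at 24 h with overlapping groups. ATAT1, which acetylates tubulin, differed by -0.40 ± 0.07 at 5 h and 1.06 ± 0.08 at 24 h. Other ATAT1 probe sets with a mean of at least 6 did not share this. The brighter of them differed by -0.038 at 5 h and 0.048 at 24 h, and the dimmer by -0.23 and -0.092.

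Ubiquitin and ubiquitin-like pathways gave 4 genes. CUL7, a cullin scaffold of ubiquitin ligases, read 68.6, 44.0 and 70.6 on the salt 5 h arrays, 303, 385 and 195 on the salt 24 h arrays and 164, 242 and 157 on the control arrays. The salt 5 h arrays were all below control, and the salt 24 h array of replicate 3 lay within the control range. CUL7 differed by -1.40 ± 0.61 at 5 h and 0.58 ± 0.27 at 24 h. UFSP2, a protease of the UFM1 modifier, read 48.1, 9.9 and 104 on the salt 5 h arrays, 145, 144 and 259 on the salt 24 h arrays and 56.1, 70.0 and 112 on the control arrays, again with the salt 5 h array of replicate 2 near the floor, and differed by -0.66 ± 0.92 at 5 h and 1.06 ± 0.14 at 24 h. It did not meet the rule without replicate 2.

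The 3 glutathione transferase genes were GSTK1 at -0.93 ± 0.59 at 5 h and 0.67 ± 0.43 at 24 h, GSTT1 at -0.53 ± 0.56 at 5 h and 0.59 ± 0.36 at 24 h and MGST1 at -0.47 ± 0.41 at 5 h and 0.74 ± 0.16 at 24 h. Only GSTK1 met the rule without replicate 1. Brighter GSTK1 probe sets outside the members lay below control at 24 h, at -0.60 and -0.36. The 6 further mitochondrial genes had medians of -0.55 at 5 h and 0.49 at 24 h. COX19, an assembly factor of cytochrome c oxidase, differed by -0.55 ± 0.20 at 5 h and 0.54 ± 0.04 at 24 h. Outside the members, COX19 probe sets differed by -0.080 and -0.59 at 5 h and by -0.035 and -0.39 at 24 h. The single chaperone gene, DNAJB5, differed by -0.46 ± 0.14 at 5 h and 0.91 ± 0.49 at 24 h. Among 11 genes in no class, METTL22, a lysine methyltransferase, read 20.4, 10.6 and 54.4 on the salt 5 h arrays, 109, 82.8 and 148 on the salt 24 h arrays and 68.6, 35.5 and 78.3 on the control arrays and differed by -0.86 ± 0.40 at 5 h and 0.77 ± 0.19 at 24 h. Its salt 24 h arrays were all above control, and its salt 5 h array of replicate 3 exceeded a control array. WBP1, named for its binding of WW domains, had 3 member probe sets at -0.46 ± 0.31 at 5 h and 0.68 ± 0.17 at 24 h, at -0.50 ± 0.35 at 5 h and 0.65 ± 0.09 at 24 h and at -0.51 ± 0.25 at 5 h and 1.12 ± 0.10 at 24 h.

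**Figure D4:**
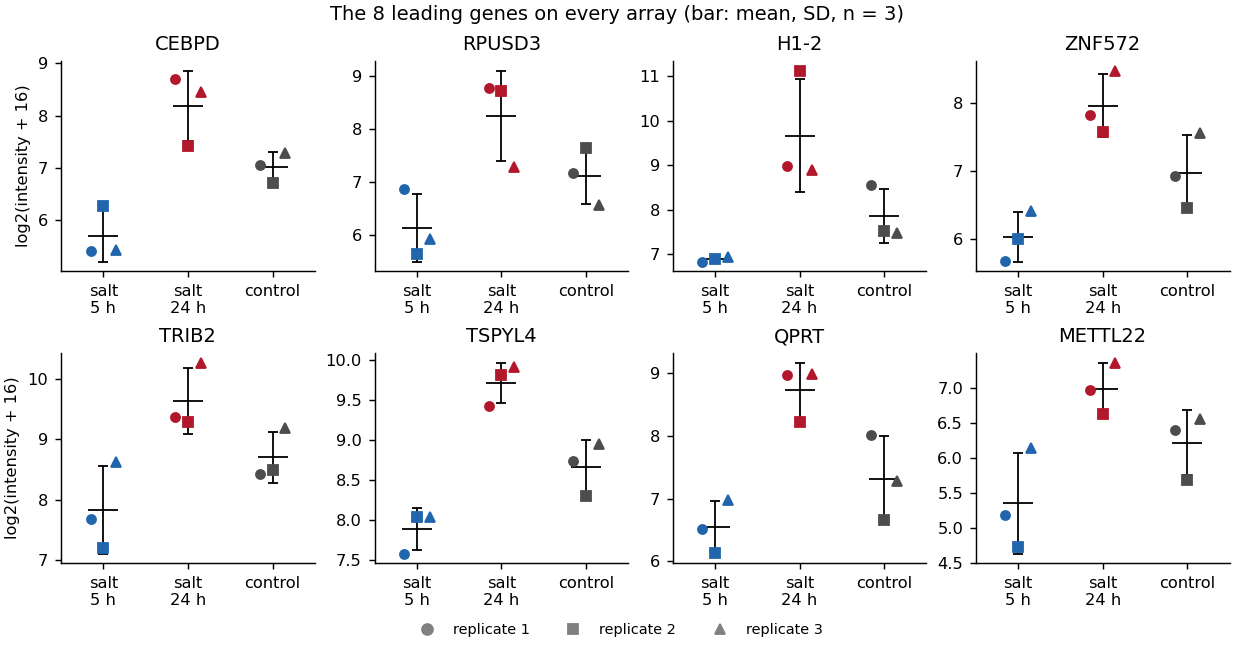
Level of the 8 leading named genes on every array, as log2(intensity + 16), with replicates 1, 2 and 3 as circles, squares and triangles; bars give the mean and SD (n = 3), and each panel has its own vertical range. The probe set of each gene is the one that ranked highest, which for CEBPD is the dimmer and for RPUSD3 the middle one by level. Groups do not overlap for CEBPD, H1-2, ZNF572 and TSPYL4, with narrow gaps for ZNF572. They overlap at 5 h for TRIB2, QPRT and METTL22 and at both times for RPUSD3.

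The same gene was often seen by other probe sets. Outside the members, 50 of the member genes had 70 further probe sets, of which 36, in 28 genes, had a mean of at least 6. By their means, 21 of the 36 (58.3%) were below control at 5 h and above it at 24 h, against 28.3% of all probe sets at that level. Of the rest, 9 were below control at both times, 6 above it at both times and 0 above it at 5 h and below at 24 h. Their median differences were -0.12 at 5 h and 0.33 at 24 h. All were hybridised on the same arrays, so they are not independent of the members.

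For 17 genes a probe set outside the members was brighter than the member. By its means 12 of the 17 had the members' directions, 4 had them in all 3 pairs, and 9 lay within 0.15 of control at 5 h. For RPL24, a protein of the large ribosomal subunit, the member differed by -0.77 ± 0.32 at 5 h and 0.56 ± 0.51 at 24 h, while the brighter probe set, with a mean log2 level of 13.30, differed by 0.057 and 0.025. For GSTK1 the brightest probe set differed by -0.015 at 5 h and -0.60 at 24 h, the opposite of the member at 24 h. A further GSTK1 probe set, also brighter than the member, differed by -0.14 and -0.36. For UFSP2 the brighter probe set differed by -0.0018 and -0.28, for TTC14 by 0.10 and 0.18, for METTL22 by -0.014 and 0.20, and for CUL7 by -0.071 and 0.23. At 5 h the brighter probe sets of all 4 genes lay within 0.15 of control. The members of UFSP2 and TTC14 had differences of -0.13 and -0.56 at 5 h without replicate 2, in which their salt 5 h arrays were near the floor. GPR137B, a lysosomal membrane protein, had -0.67 and 0.65 on its brighter probe set, and LPCAT3, which remodels phospholipids, had -0.27 and 0.99. The brighter probe set of LPCAT3 had the directions of the rule in every pair. That of GPR137B did not, with its salt 24 h array of replicate 1 at 362.9 and the control array at 412. For PNISR the brightest probe set differed by -0.22 and 0.80, for CREBZF by -0.23 and 0.78 and for TNRC6B by -0.097 and 0.83. In these genes it did not have the directions of the rule in every pair. PNISR had a further probe set with a mean of at least 6, at 0.023 at 5 h and 1.31 at 24 h. CREBZF had another at 0.12 and 0.55. Which transcripts each probe set detects is not given in the sources used here.

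**Figure D5:**
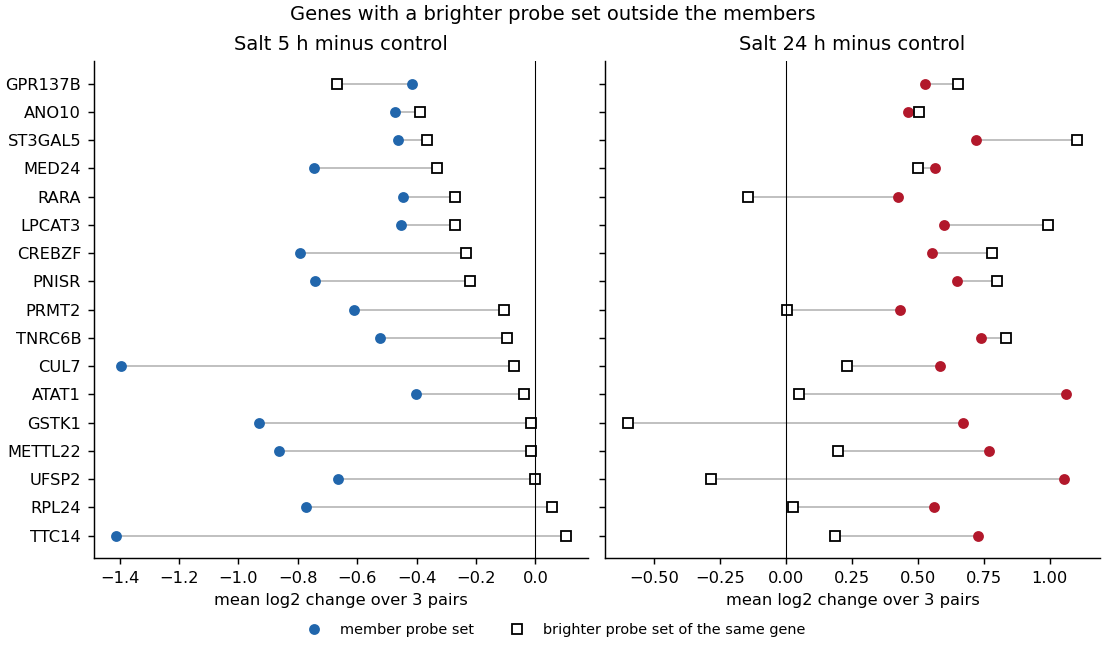
Mean log2 difference from control over 3 pairs at 5 h (left) and 24 h (right) for the 17 genes with a brighter probe set outside the members. Filled circles are the member probe set (the brightest, where there are several), open squares the brighter one, and grey lines join the 2 probe sets of a gene. At 5 h the squares of 9 genes lie within 0.15 of control.

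Known pathways were described through 18 gene lists, each gene by its brightest probe set. Of 328 listed genes measured, 6 had a member probe set (1.83%), against 1.33% of all 7916 measured genes, and 13 lists held no member. Of all measured genes, 0.189% rose and 0.253% fell at 5 h and 5.13% rose and 5.65% fell at 24 h, and with the replicate block 2.27% rose and 3.01% fell at 5 h and 19.9% rose and 20.1% fell at 24 h. Sterol and fatty acid synthesis, where HMGCS1 was the member, had 26 measured genes, of which 0 passed the same limma threshold at 5 h and 8 rose at 24 h. With the replicate block 22 rose at 24 h and 0 fell. The list's median difference was -0.17 at 5 h and 0.78 at 24 h, against -0.025 and 0.012 for all genes. LSS, a cyclase of sterol synthesis, differed by -0.27 and 1.26, and ACLY, which supplies acetyl-CoA, by -0.29 and 1.01, both called at 24 h.

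The clock list had 9 measured genes with PER2 as its member. At 5 h NFIL3, a repressor of clock output, rose by 1.62 and BHLHE40, a clock repressor, fell by 1.64, and at 24 h the nuclear receptor RORA rose by 0.69. The list's medians were -0.052 and 0.20, and with the block 3 of its 9 genes rose at 24 h, against 19.9% of all genes. Of the 17 measured osmotic adaptation genes, which include AQP1 and SLC6A9, 2 rose at 5 h and 6 at 24 h, and 0 fell. KCNK5, a potassium channel, rose by 2.46 at 5 h and by 2.73 at 24 h, and the median of the list was 0.21 at 5 h and 0.62 at 24 h. With the block 4 rose at 5 h and 11 at 24 h, and SLC7A1, an amino acid transporter, fell by 0.86 at 24 h.

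The immediate early list had 24 measured genes with DUSP1 as its member. At 5 h 1 rose and 1 fell, and at 24 h 5 rose and 1 fell. With the block 3 rose and 5 fell at 5 h, and 7 rose and 6 fell at 24 h. MYC, a growth-promoting transcription factor, fell by 2.16 at 5 h and by 1.58 at 24 h. Of the 17 measured genes of Hedgehog signalling and the cilium, with IFT122 as the member, 0 passed at either time, and with the block 4 rose and 3 fell at 24 h, against 19.9% and 20.1% of all genes. The Notch list, which did not include NOTCH4, had 5 measured genes, and only LFNG, a modifier of Notch receptors, passed, with a fall by 1.24 at 5 h. Of 35 lysosome and autophagy genes, 0 were members. In that list 4 rose at 24 h, or 25 with the block, with which WIPI1, an autophagy protein, fell by 0.66 at 24 h. The medians of the list were -0.17 and 0.48.

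The 100 unlisted members had median differences of -0.62 at 5 h and 0.67 at 24 h, against -0.52 and 0.74 for the 119 with a symbol. A deficit of at least 1 was seen in 17 unlisted members and in 5 with a symbol, and an excess of at least 1 in 15 and in 28. The brightest of them read 1939, 888 and 2940.0 on the salt 5 h arrays, 11026, 11103 and 12911 on the salt 24 h arrays and 6040.3, 8129 and 9751 on the control arrays. Its 3 groups did not overlap, and the salt 5 h level was the furthest below control of any member, at -2.18 ± 0.86 at 5 h and 0.57 ± 0.25 at 24 h. At 24 h the greatest excess of any member was that of another unlisted probe set, which differed by -0.59 ± 0.37 at 5 h and 1.85 ± 0.27 at 24 h. Both were chosen after their values were seen.

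Near the thresholds, F11R, ATAT1 and MUS81 were just inside the 5 h limit at -0.40 each to 2 decimals, and THBS3, ZNF692 and SLC9A5 just outside it at -0.40, -0.40 and -0.39. At 24 h RPRD2, ZNFX1 and NDST2 were just inside at 0.40, 0.41 and 0.41, and TMEM42, PEDS1 and ZSCAN26 just outside at 0.39 each. On the mean level ZNF181, SLC6A9 and SYNGR3 were just inside at 6.01, 6.04 and 6.04, and AMT, APOD and a further probe set of ATAT1 just outside at 5.94, 5.92 and 5.91. APOD, a lipid carrier, differed by -0.76 at 5 h and 2.35 at 24 h and was left out by its level alone.

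The rule was then applied with other pseudocounts, scalings and replicates. Across pseudocounts of 1 and 64, median-centring, quantile normalization and leaving out each replicate in turn, 62 members met it every time, from 29 genes and 27 unlisted probe sets. Among them were CEBPD and TRIB2 with both member probe sets and PPP1R3C and RPUSD3 with all 3. H1-2, ZNF572, TSPYL4, QPRT, PIK3IP1, ZNF3, SIX5, MTMR11, ZNF613, 1 probe set of PER2 and 1 of LCAT were also among them. NOTCH4 was not, since with a pseudocount of 1 its mean level was 5.92, below the 6 of the rule, while its differences there were -1.36 and 0.89. METTL22 likewise had mean levels of 5.75 with a pseudocount of 1 and 5.93 without replicate 3, with differences of -1.29 and -1.08 at 5 h. RALGDS was at -0.37 at 5 h with a pseudocount of 64. Without replicate 1 DUSP1 was at -0.399 at 5 h and the brighter probe set of PLA2R1 at -0.044. Without replicate 2 RUFY3 was at -0.24 and UFSP2 at -0.13 at 5 h. Transcription regulators kept 8 of 14 probe sets and glycogen, lipid and phosphoinositide genes 6 of 11, while membrane, glycan and extracellular proteins kept 0 of 15. Of all 219 members 62 were kept. The median 5 h differences of these classes were -0.70, -0.58 and -0.45, so they lay at unlike distances from the -0.4 of the rule. No trait of a class is read from these counts.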

How the data were processed

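The 9 arrays of nucleus pulposus cells were deposited by the authors as 1 table of linear intensity values. The submitters' processing notes name PLIER and Affymetrix Expression Console, and their versions, their settings and any normalization between arrays are not stated there or elsewhere in the labels. Of its 24128 probe sets, 112 manufacturer controls were left out, and 3620 values of the rest are exactly 0. Probe sets were named through the annotation of the platform, and all 119 member probe sets with a symbol matched a current bovine gene table without a change of symbol.

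Intensities were transformed as log2(value + 16), which understates differences of dim probe sets. No further scaling was applied. A linear model with a mean per group was fitted by limma 3.58.1 (R 4.3.3; lmFit, then eBayes with trend) to the 9 arrays over the 18012 probe sets at or above the 25th percentile of the mean, with calls at an adjusted p under 0.05 (Benjamini-Hochberg). The fit without the replicate block was also run on simulated data with independent noise on each array. Deviations shared by replicate number and the fit with the block were not covered. Members were counted by the rule with Python 3.11.15.

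The groups share replicate numbers. Deviations of same-numbered arrays from their group means correlated at 0.56 to 0.90 in all 9 comparisons. Differently numbered arrays were not compared. On the first principal component, with 47.7% of the variance, replicate 3 scored 50.8 to 68.1 and the other arrays -42.3 to -18.0. The numbers thus set replicate 3 apart in every group, while the pairing within replicates 1 and 2 was not tested. The number of arrays limits the precision, and the labels do not say that cultures came from separate animals, so p-values cover only the spread between arrays, which may be technical.

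The members and the gene lists were chosen with earlier results of these data known, and the gene classes after the members were known. The genes described with values are the 24 leading by the smaller of deficit and excess, all members on a gene list, genes with more than 1 member probe set and those nearest the thresholds. Other genes are examples chosen after their values were seen. Alternatives covered the pseudocount, scaling, filters, size threshold, replicate block and each replicate left out. Promoter and protein sequences were not analysed here.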

Additional observations from a re-analysis of the deposited data

Results flagged for a closer look

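By the rule, all 219 members had every 5 h difference from control below 0 and every 24 h difference above 0, opposite directions at the 2 times in every pair. The rule fixed this, and the difference between the times was not tested on independent arrays. In the limma fit (Benjamini-Hochberg adjusted p under 0.05), 182 members were called higher in salt 24 h than in salt 5 h cultures, a contrast that the rule used as well.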

How the results depend on the processing

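The number of probe sets that met the rule, 219, was 104 with a pseudocount of 64, 123 with median-centred arrays, 133 with a mean of at least 7, 402 with differences of at least 0.3 and 52 with at least 0.6. It was 239 with a pseudocount of 1, 154 after quantile normalization, 272 without a filter and 273 with group means alone and no replicate block. Leaving out a replicate gave 151 to 349, with 349 without replicate 2, and kept 117, 186 and 188 of the members without replicates 1, 2 and 3. Members called lower at 5 h by limma numbered 6, and 89 with the replicate block, 3 with a pseudocount of 64, 2 with median-centred arrays, 0 with only the 6 arrays compared and 0 to 5 with 1 array left out, with 0 without the salt 5 h array of replicate 1 or the control array of replicate 3. Members called higher at 24 h numbered 46, and 194 with the replicate block, 30 with median-centred arrays, 22 with only the 6 arrays compared and 4 to 47 with 1 array left out. They numbered 4 without the control array of replicate 2, 5 without the salt 24 h array of replicate 1 and 12 without the control array of replicate 3. The 182 calls between 24 h and 5 h ranged over 105 to 174 with 1 array left out, with 105 without the salt 5 h array and 108 without the salt 24 h array of replicate 1. The cause of these shifts was not tested. Of 256 values of 32 named genes under other pseudocounts and scalings, 228 moved by less than 1 SD over pairs and 28 by more. Of 192 values with 1 replicate left out, 16 moved by over 1.5 times and 13 fell below 0.4 in size, 9 of them at 5 h, among them PLA2R1 at -0.044 without replicate 1 and UFSP2 at -0.13 without replicate 2. Among these values 0 reversed.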
